A study of Arabidopsis thaliana with 16 samples.

Results

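Transposable elements (TEs) on the chromosome arms of Arabidopsis thaliana that overlap an annotated gene were examined for the small RNAs that 2 Argonaute proteins, AGO5 and AGO9, carry. A TE row of the deposited table was taken when its coordinates overlapped any nuclear gene row and its start lay outside the pericentromere. The pericentromere was set at 11.5 to 17.7 Mb on chromosome 1, 1.1 to 7.2 Mb on chromosome 2, 10.3 to 17.3 Mb on chromosome 3, 1.5 to 6.3 Mb on chromosome 4 and 9.0 to 16.0 Mb on chromosome 5. After 7 listed TEs were left out, 4117 of the 31189 nuclear TEs, and of the 65386 features in the table, met the rule. They overlapped 3210 genes and had a median length of 276 bases. The rule used positions and no read values.

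RNA was immunoprecipitated through a green fluorescent protein (GFP) tag and sequenced as small RNA, in 8 groups of 2 libraries each. The AGO5 immunoprecipitate (IP) came from plants with pAGO5::GFP-AGO5 and the AGO9 IP from plants with pAGO5::GFP-AGO9, so the AGO5 promoter drove both proteins. The background IP came from plants with GFP alone under the 35S promoter (p35S::GFP), and all lines were in the Col-0 background. Input replicate 1 came from the AGO5 line and input replicate 2 from the AGO9 line at both ages. Material was the shoot apex at 7 days, and, at 35 days, the inflorescence meristem with its floral meristems and young buds. Effects of age and of tissue cannot be told apart. The labels do not say that replicates came from separate plants, and p-values measure the spread between these libraries, which may be technical. In such bulk material, fewer cells of a type and less small RNA per cell cannot be told apart.

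In plants, TEs are kept silent by RNA-directed DNA methylation. RNA polymerase IV transcripts are copied into double-stranded RNA, diced mainly into small interfering RNAs (siRNAs) of 24 nt, and loaded into Argonautes of the AGO4 group, to which AGO9 belongs, which guide DNA methylation to matching sites. AGO5 belongs to the AGO1 group, and both AGO5 and AGO9 are known for roles in the ovule. A TE that reaches into a gene puts such siRNAs next to the gene's own start, end or exons.

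The gene-free DNA of 5 of these TEs is shown because the results below turn on them and because it shows how far a read can be placed. Each sequence is the plus strand of the TAIR10.1 genome, read 5′ to 3′, and capitals mark bases within at least one 24-base window that occurs once in the genome. For gene-free stretches above 300 bases, the 300 bases next to the gene are given.
AT3TE35700, all 38 gene-free bases, chr3:8510651-8510688: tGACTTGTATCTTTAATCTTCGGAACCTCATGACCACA
AT1TE60380, 300 bases, chr1:18225570-18225869: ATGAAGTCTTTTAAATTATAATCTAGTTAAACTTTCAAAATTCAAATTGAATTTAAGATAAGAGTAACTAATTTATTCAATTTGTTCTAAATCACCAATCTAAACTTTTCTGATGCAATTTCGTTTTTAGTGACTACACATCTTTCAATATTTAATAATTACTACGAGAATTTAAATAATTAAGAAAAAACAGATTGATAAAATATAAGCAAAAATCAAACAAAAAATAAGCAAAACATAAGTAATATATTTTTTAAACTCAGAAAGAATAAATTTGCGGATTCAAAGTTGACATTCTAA
AT4TE41150, 300 bases, chr4:9163780-9164079: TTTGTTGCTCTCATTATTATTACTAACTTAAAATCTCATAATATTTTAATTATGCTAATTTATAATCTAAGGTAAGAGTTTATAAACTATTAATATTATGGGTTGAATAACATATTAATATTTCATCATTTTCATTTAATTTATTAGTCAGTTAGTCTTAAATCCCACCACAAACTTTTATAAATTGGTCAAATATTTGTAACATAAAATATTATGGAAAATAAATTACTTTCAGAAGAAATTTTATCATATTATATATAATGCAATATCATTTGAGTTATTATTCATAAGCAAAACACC
AT4TE33685, 300 bases, chr4:7692411-7692710: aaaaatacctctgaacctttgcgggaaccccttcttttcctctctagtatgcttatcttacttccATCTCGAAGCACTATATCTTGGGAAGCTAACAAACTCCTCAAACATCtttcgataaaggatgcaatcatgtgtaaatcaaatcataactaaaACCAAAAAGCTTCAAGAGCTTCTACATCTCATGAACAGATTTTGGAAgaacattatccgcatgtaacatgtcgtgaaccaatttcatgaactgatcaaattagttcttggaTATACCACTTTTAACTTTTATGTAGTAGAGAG
AT4TE41820, all 127 gene-free bases, chr4:9284783-9284909: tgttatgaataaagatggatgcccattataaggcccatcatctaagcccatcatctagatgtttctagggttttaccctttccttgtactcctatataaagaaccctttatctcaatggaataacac
Every window shown of AT1TE60380 and AT4TE41150 was unique, so a 24 nt read within them has 1 possible origin. Shorter windows were not checked. In AT4TE41820 no window was unique and one occurred 34 times, so its value may hold reads from other copies. How multiply aligned reads were counted is not given in the sources used here.

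No read was assigned to any TE that lay wholly inside gene rows. Of the 4117 TEs, 2112 were wholly covered by genes, and 0 of these had a read in any of the 16 libraries. Across the table, 0 of the 6885 features with no base of their own had a read, against 53203 of the 58501 features with such bases, so a read that touched more than 1 row was given to none of them. The values of a gene-overlapping TE are therefore values of reads that touch its gene-free part, and where that part is shorter than a read, such reads also run into DNA beside the TE. Of the covered TEs, 785 touched coding sequence, 692 touched an exon without coding sequence and 635 lay in introns only. The small RNAs of these 2112 TEs were not measured by this table.

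Detection of the other 2005 TEs followed the length of their gene-free part. A read was found for 7.50% of the TEs with 1 to 17 gene-free bases, 29.1% with up to 50, 49.7% with up to 100, 70.9% with up to 300, 88.1% with up to 1000 and 98.6% above 1000, each bin starting where the last ended. In all, 1462 of the 2005 (72.9%) had a read and 543 had none, and of the arm TEs outside genes 78.9% had a read. A mean of at least 1 RPM (reads per 1e+06 assigned reads) over the 16 libraries was reached by 483, which entered the tests, and at least 10 RPM by 242.

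**Figure D1:**
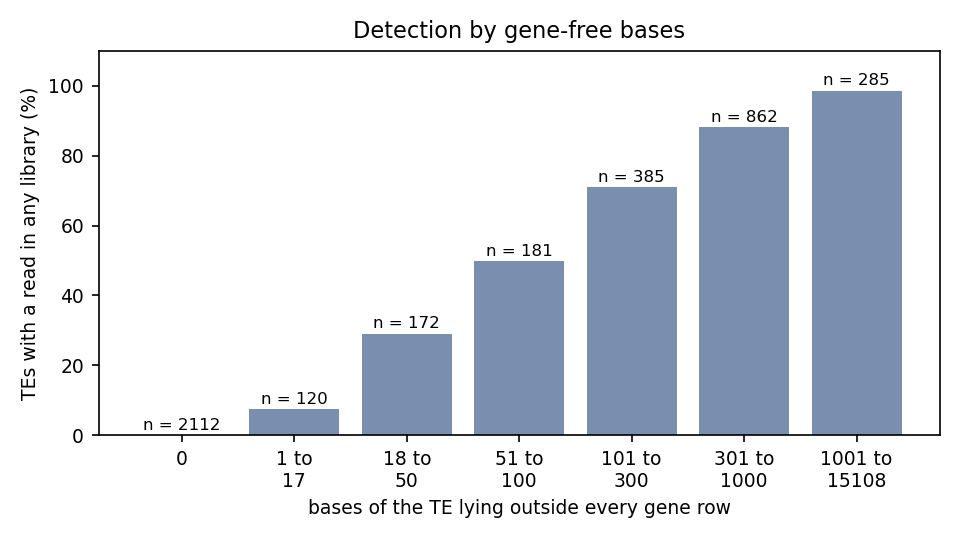
Share of gene-overlapping arm TEs with a read in any of the 16 libraries (vertical axis, %) by the number of their bases outside every gene row (horizontal axis, bins), with the number of TEs above each bar. The share is 0 for the 2112 TEs inside genes and 98.6% above 1000 gene-free bases.

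Most of the 483 tested TEs reached past the end of a protein-coding gene. Of them, 244 extended past a gene's 3′ end, 160 past a 5′ end, 57 enclosed a gene and 22 reached past ends of both kinds. Protein-coding genes were overlapped by 430, microRNA genes by 19, other non-coding genes by 18, pseudogenes by 14 and tRNA genes by 2. At least 50% of the 24-base windows were unique in 312, and 14 had under 10% unique windows. No tested TE had the same reads as another in every library.

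Small RNA was far denser on the TE than on its gene. Among the 419 tested TEs whose gene had at least 100 bases of its own, the median density in day 7 input was 10.97 RPM per kb on the gene-free TE and 0.137 RPM per kb on the gene, and the TE was the denser in 383. In day 35 input the medians were 22.3 and 0.0741 RPM per kb, and the TE was the denser in 388. The TEs had been filtered on a mean of at least 1 RPM and the genes had not, so these densities are a description.

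The libraries held between 3578524 and 99594348 assigned reads, and 3 reads, taken as the smallest showable level, were worth 0.0301 to 0.838 RPM. Over the features tested, replicate libraries of a group correlated at r from 0.743 in the day 35 GFP IP to 0.994 in day 7 input, a correlation across features, which are not independent replicates. The day 35 GFP IP was the shallowest group, and 181 and 220 of the 483 TEs were at 0 in its libraries. MIR156A, a microRNA gene of the juvenile phase, had 557 and 518 RPM in day 7 input against 23.1 and 38.8 RPM in day 35 input, and MIR172A, a microRNA gene of the adult phase, had 10.9 and 14.6 against 74.1 and 48.4 RPM.

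The gene-overlapping arm TEs took a larger share of the AGO9 IP than of the AGO5 IP at both ages. At day 7 they held 1.004% and 1.15% of the AGO5 libraries, 2.66% and 2.48% of the AGO9 libraries, 1.60% and 1.82% of input and 0.476% and 0.707% of the GFP IP. AGO9 libraries stood above input, and AGO5 libraries stood between GFP and input, with no overlap. At day 35 they held 1.64% and 1.54% of the AGO5 libraries, 3.87% and 3.36% of the AGO9 libraries, 3.87% and 3.62% of input and 1.40% and 1.61% of the GFP IP. AGO9 now overlapped input, and AGO5 overlapped the GFP background. The AGO9 minus AGO5 difference was 1.49 percentage points at day 7 and 2.02 at day 35. The exact two-sided permutation test gave p = 0.333 for each, the smallest value that 2 against 2 libraries allow. The widest Wilson 95% interval of an AGO library, that of AGO9 replicate 2 at day 35, ran from 3.35% to 3.37%. Such intervals cover counting error only, and whether molecular identifiers were used is not given in the sources used here. Arm TEs outside genes also held a larger mean share of AGO9 than of AGO5, 12.7% against 6.45% at day 7 and 16.7% against 7.81% at day 35. Pericentromeric TEs held 68.3% of AGO9 and 73.3% of AGO5 at day 7, and 53.3% and 54.5% at day 35.

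The reads in these TEs were richer in 24 nt in AGO9 than in AGO5 at both ages, as were the libraries as a whole. At day 7, 24 nt reads made up 92.6% and 96.5% of the TE reads in AGO9, 74.3% and 72.8% in AGO5, 64.4% and 64.8% in input and 50.7% and 41.3% in GFP. At day 35 they made up 90.0% and 65.6% in AGO9, 47.6% and 44.3% in AGO5, 59.2% and 64.6% in input and 37.1% and 59.3% in GFP. Both AGO9 libraries were above both AGO5 libraries at each age, and the exact two-sided permutation p was 0.333, the smallest possible. The difference of the means was 21 percentage points at day 7 and 31.9 at day 35, and without AGO9 replicate 1 at day 35 the latter was 19.7. Over all reads of a library the 24 nt share was 83.1% ± 9.50 in AGO9 and 47.7% ± 7.05 in AGO5 at day 7 (SD, n = 2), a difference of 35.4 points, and 78.2% ± 16.1 and 32.2% ± 3.10 at day 35, a difference of 46 points. In arm TEs outside genes the difference was 22.7 and 32.7 points, and nothing particular to the gene-overlapping TEs is read from their sizes. In AGO5, 22 nt reads made up 9.57% and 15.1% at day 7 and 23.1% and 22.4% at day 35, against 4.79% and 4.63%, then 4.83% and 4.09%, in input. The AGO5 share of 22 nt was above input without overlap at both ages. Its share of 21 nt was above input at day 35 only, 14.2% and 14.1% against 4.94% and 4.15%. The difference between the ages was not tested. Neither share was tested against the GFP IP, so no preference of AGO5 for these sizes is read from them. Reads of 23 nt, 25.5% and 25.1% of the TE reads in day 7 input, were 3.89% and 2.78% in AGO9 and 8.91% and 7.47% in AGO5.

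The same sizes led at single TEs. Of the TEs with at least 1 RPM in a group, 24 nt was the most frequent size in 456 of 457 in AGO9 at day 7 and 441 of 444 at day 35. In AGO5 it led in 344 of 352 at day 7 and in 277 of 371 at day 35, where 22 nt led in 45, 21 nt in 25 and 23 nt in 24. In input 24 nt led in 427 of 432 at day 7 and 451 of 466 at day 35. In the GFP IP at day 35 it led in 215 of 330, and in 227 of 318 at day 7. The part of background in the AGO5 reads was not tested.

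**Figure D2:**
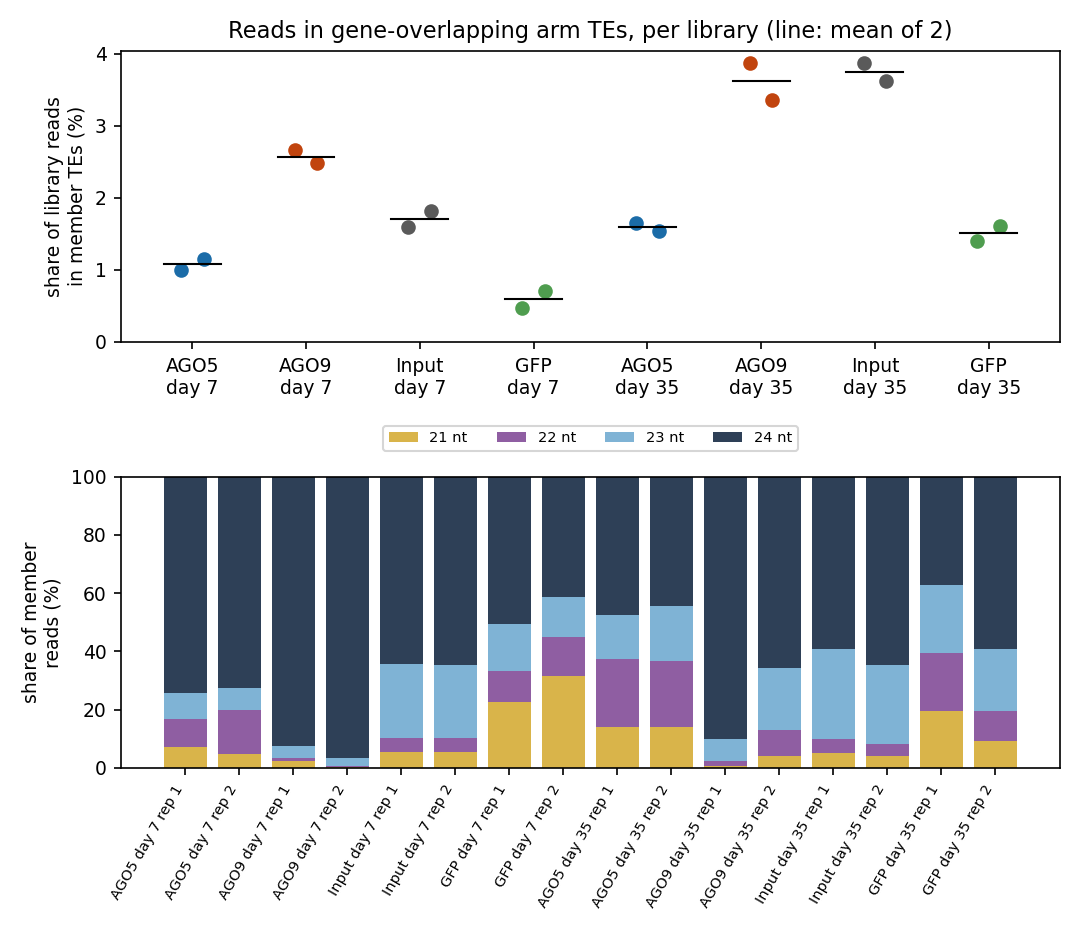
Upper panel: share of each library's reads in gene-overlapping arm TEs (%), 1 point per library and a line at the mean of 2. Lower panel: share of 21, 22, 23 and 24 nt reads among those reads (%), 1 bar per library. AGO9 libraries lie above AGO5 libraries at both ages and are richest in 24 nt within each age. The lowest of them is AGO9 replicate 2 at day 35, at 65.6%.

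With libraries scaled as deposited, nearly every called difference between the proteins ran toward AGO9. Counts come from limma on log2(RPM + 1), fitted over the 17020 features whose mean reached 1 RPM, with Benjamini-Hochberg adjusted p under 0.05 over all of them. At day 7, AGO9 was the higher at 232 of the 483 TEs and AGO5 at 0, where 21.5% and 3.44% of all features tested were called in these directions. By limma at an unadjusted p under 0.05, 303 of the 483 differed in either direction at day 7. No share of all features is given at this unadjusted limit, so the 303 are not read as many or few. At day 35, AGO9 was the higher at 185 and AGO5 at 3, where 18.6% and 7.06% of all features were called. The median AGO5 minus AGO9 log2 difference was -1.46 over the TEs and -0.74 over all features at day 7, and -1.16 and -0.34 at day 35. Both AGO9 libraries were above both AGO5 libraries at 434 TEs (89.9%) at day 7, where 59.7% of all features did so, and at 332 (68.7%) at day 35, where 42.1% did. The 2 ages share no library. Both sets of calls use the same residual variance per feature and the same filter over 16 libraries, so they are not independent. At both ages 139 TEs were called toward AGO9, which is 59.9% of the day 7 calls and 75.1% of the day 35 calls. Over all features these shares were 51.4% and 59.3%. Of the 232 and 185 calls, 25 and 15 reached the 1 RPM minimum only through the AGO9 libraries of that age, with a mean under 1 RPM over the other 14 libraries, and so had to differ.

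The calls depended on how libraries were scaled, while the TEs lay below the other features as deposited, under quantile normalization and under edgeR. With each library centred on its median, AGO9 was the higher at 1 TE at day 7 and 14 at day 35, and AGO5 at 0 at both. With the edgeR quasi-likelihood test on recovered reads, AGO9 was the higher at 5 and AGO5 at 6 at day 7, and AGO9 at 77 and AGO5 at 6 at day 35. The median AGO5 minus AGO9 difference of the TEs lay below that of all features by 0.72 at day 7 and 0.82 at day 35 as deposited, by 0.63 and 0.79 under quantile normalization and by 0.84 and 0.95 under edgeR. With no minimum level, over 1462 TEs, it lay below by 0.09 and 0.06. Median centring cannot move that distance, and moved the median of all features to 0.14 at day 7 and 0.09 at day 35. Arm TEs outside genes were called toward AGO9 at 37.8% and 36.45%, and the gene-overlapping TEs at 48.0% and 38.3%, a difference that was not tested. The day 7 count of 232 was 72 and 114 without AGO9 replicate 1 or 2, 143 and 117 without AGO5 replicate 1 or 2 and 321 and 323 without day 35 GFP replicate 1 or 2. The day 35 count of 185 was 100 without AGO9 replicate 1. The day 35 count of 3 toward AGO5 was 1 without AGO5 replicate 2 or AGO9 replicate 2 and 5 without AGO5 replicate 1, and the day 7 count of 0 was 2 without either day 35 GFP library.

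**Figure D3:**
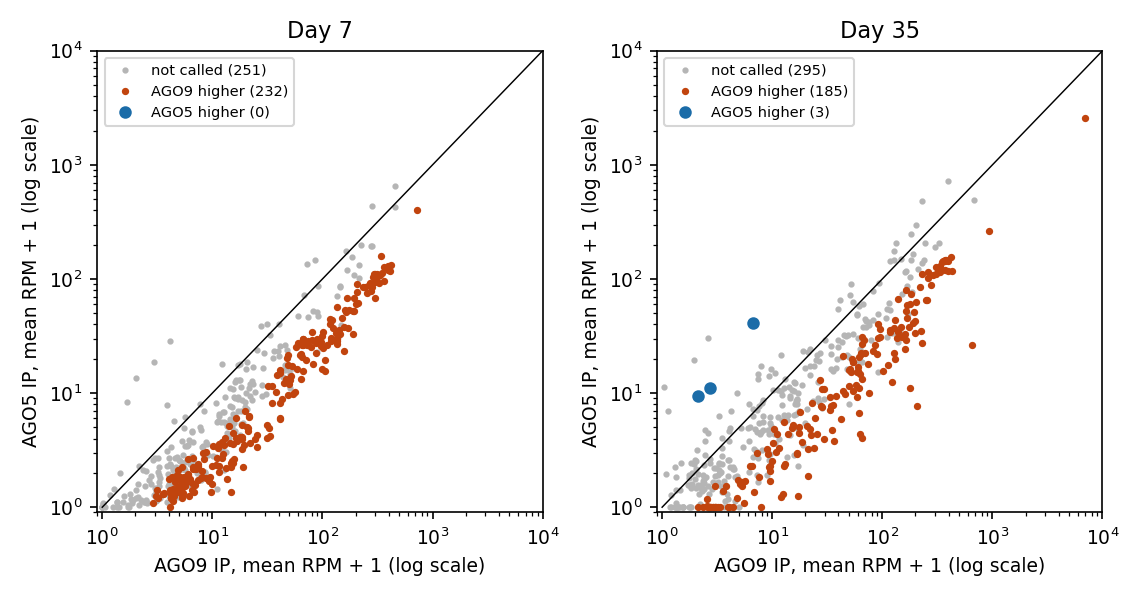
Mean RPM + 1 in the AGO9 IP (horizontal, log scale) and the AGO5 IP (vertical, log scale) for the 483 tested TEs, 1 point each, at day 7 (left) and day 35 (right), with the line of equal level. Most points lie under the line, and 232 and 185 were called higher in AGO9.

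**Figure D4:**
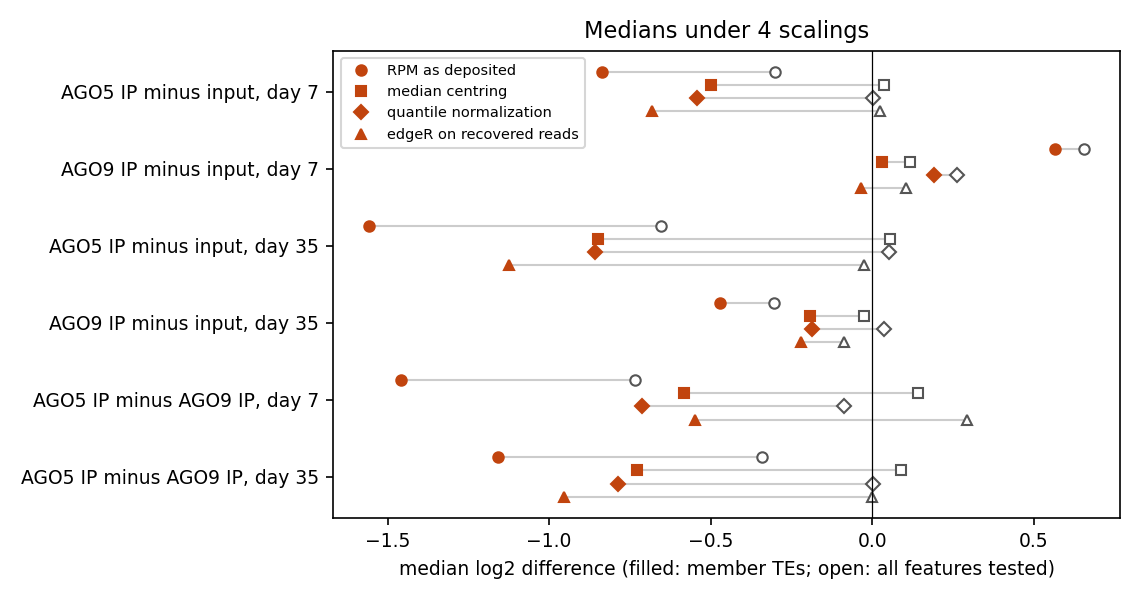
Median log2 difference over the 483 gene-overlapping arm TEs (filled) and over all features tested (open) in 6 comparisons under 4 scalings, marked by shape. In both AGO5 minus AGO9 comparisons the filled symbol lies left of the open one, by a distance that median centring leaves as it was by construction.

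The calls were spread over TEs on either side of a gene. At day 7, AGO9 was the higher at 75 of 160 TEs past a 5′ end, 116 of 244 past a 3′ end, 32 of 57 that enclosed a gene and 9 of 22 past ends of both kinds. At day 35 the counts were 56, 98, 24 and 7. The differences between these classes were not tested. Of the 19 TEs at microRNA genes, 9 at day 7 and 7 at day 35 were higher in AGO9 (47.4% and 36.8%), against 48.0% and 38.3% of all 483 TEs and 21.5% and 18.6% of all features. Of 34 results of the TEs named by rule below, 22 did not pass the test under median centring and 18 did not under edgeR.

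Among called TEs whose mean reached 10 RPM and whose groups did not overlap, those with the largest day 7 differences toward AGO9 included a pair around microRNA genes of 1 family. AT4TE62590 (chr4:13316603-13317048) enclosed the microRNA gene MIR5635c and had 4.88 and 1.25 RPM in AGO5, 38.0 and 23.3 RPM in AGO9, and 21.5 and 28.1 RPM in input. Its log2 difference was -3.08 ± 0.59 (SE, limma adjusted p = 0.00494). AT1TE68120 (chr1:20622392-20622836) enclosed MIR5635b, another gene of that family, and had 4.39 and 2.01 RPM in AGO5 against 41.6 and 23.7 RPM in AGO9, a difference of -3.01 ± 0.47 (limma adjusted p = 0.00303). In both, AGO5 and AGO9 libraries stood well apart, and the enclosed microRNA row, with no base outside the TE, could be given no read. AT4TE62590 had 45.6% and AT1TE68120 71.0% unique windows, so they may share reads and are not read as independent results. The other 4 TEs picked by the same rule were AT2TE82905, AT1TE62705, AT3TE79795 and AT1TE74430, with log2 differences of -2.91, -2.85, -2.81 and -2.78.

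At day 35, 4 of the 6 TEs with the largest differences toward AGO9 under the same limits had under 4 RPM in every day 7 library. AT1TE60380, AT3TE35695, AT1TE77230 and AT5TE28620 reached the mean of 10 RPM only through their AGO9 libraries at day 35. AT2TE29350 reached it without them. At AT1TE60380 the mean over the other 14 libraries was 1.93 RPM. Where those libraries were needed, the limit itself favoured large differences toward AGO9, and their sizes are not read further. AT1TE60380 (chr1:18225401-18225974), whose sequence is given above, extends 469 bases past the 5′ end of the protein-coding gene AT1G49260 and overlaps 105 non-coding bases of its exons. It had 0 reads in all 8 day 7 libraries, where 3 reads would be worth at most 0.217 RPM. At day 35 it had 300 and 111 RPM in AGO9, 6.75 and 6.54 RPM in AGO5, 3.99 and 5.83 RPM in input and 3.63 and 0.240 RPM in GFP. On the TE, only the AGO9 libraries were high. The AGO9 minus input log2 difference was 4.98 ± 0.59 (limma adjusted p = 0.000325), and the AGO5 minus AGO9 difference was -4.59 ± 0.59 (limma adjusted p = 0.000443). Of the AGO9 reads there, 85.6% were of 24 nt. The overlapped gene held more than the TE at day 35, with 3217 RPM in AGO9, 903 RPM in AGO5, 91.1 RPM in input and 71.6 RPM in GFP. The reads were thus not confined to the TE, and on the gene AGO5 was high as well.

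AT2TE29350 (chr2:7204474-7205418) overlaps 28 coding bases at the 3′ end of AT2G16620. It had 1042 and 269.9 RPM in AGO9 at day 35 against 26.7 and 24.2 RPM in AGO5, 55.8 and 40.8 RPM in input, and at most 3.58 RPM at day 7. Both AGO9 libraries stood above all others. Its AGO5 minus AGO9 difference at day 35 was -4.33 ± 0.78 (limma adjusted p = 0.00209). It starts 4.47 kb outside the pericentromere bound. The overlapped gene AT2G16620 had 9353 RPM in AGO9, 1790 RPM in AGO5 and 637 RPM in input at day 35. The neighbours AT3TE35695 and AT3TE35700 adjoin on chromosome 3. AT3TE35695, at the pseudogene AT3G23645, had 299 and 54.6 RPM in AGO9 at day 35 against 12.2 and 7.94 RPM in AGO5. The pseudogene itself had 3203 RPM in AGO9, 357 RPM in AGO5 and 103 RPM in input at day 35. AT1TE77230, past the 3′ end of AT1G63240, had 89.1 and 38.6 RPM in AGO9 against 2.45 and 3.66 RPM in AGO5. AT5TE28620, past the 5′ end of LCBK1, a sphingoid base kinase gene, had 96.6 and 145 RPM in AGO9 against 14.8 and 8.37 RPM in AGO5, with 8.54 and 6.58 RPM in AGO9 at day 7. Its GFP libraries at day 35 had 0.279 and 31.7 RPM and lay on both sides of AGO5. The genes at AT1TE77230 and AT5TE28620 were low, with 0.483 and 0 RPM in AGO9 at day 35. The other TE of these 6, AT2TE82905, encloses AT2G44240 and had 22.4 and 9.70 RPM in AGO9 against 0 and 0.523 RPM in AGO5.

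AGO5 was called higher at 3 TEs at day 35, named here after their values were seen. By their mean over the other 14 libraries, 1 of the 3 reached the 1 RPM minimum only through AGO5 at day 35. AT5TE06770, past the 3′ end of the sucrose transporter gene SUC9, had 12.1 and 67.9 RPM in AGO5 against 7.29 and 3.98 RPM in AGO9 (log2 difference 2.223 ± 0.62, limma adjusted p = 0.0205). AT2TE41700, past the 5′ end of AT2G22940, had 6.27 and 13.8 RPM in AGO5 against 1.201 and 2.239 RPM in AGO9. AT1TE31410, with 18 gene-free bases at AT1G28000, had 2.81 and 14.0 RPM in AGO5 against 1.11 and 1.12 RPM in AGO9. All 3 were listed at 0 in both day 35 GFP libraries, where 3 reads are worth 0.838 and 0.721 RPM.

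Against input, AGO9 was above input at some of these TEs at both ages, and AGO5 was below input at many. AGO9 was above input at 56 TEs and below at 1 at day 7, where 17.6% and 9.48% of all features were called. At day 35 it was above at 24 and below at 13, where 3.59% and 6.26% of all features were called. AGO5 was above input at 3 TEs and below at 99 at day 7, where 7.73% and 10.4% of all features were called. At day 35 AGO5 was above at 9 and below at 235, where 3.84% and 24.2% of all features were called. The AGO9 share above input, 11.6% at day 7, was under that of all features, whereas the AGO5 shares below input, 20.5% and 48.7%, were over it. Among arm TEs outside genes, AGO9 was above input at 6.99% at day 7, and AGO5 was below input at 14.2% and 47.9%. How these shares differ from those of the gene-overlapping TEs was not tested. Of the 56 and 24 TEs with AGO9 above input, 11 and 9 reached the 1 RPM minimum only through the AGO9 libraries of that age, as did 1 of the 9 with AGO5 above input through AGO5 and 8 of the 235 below through input at day 35. Whether the IP against input counts differ between the ages was not tested.

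These counts moved with the scaling as well. With median centring, AGO9 was above input at 0 TEs and below at 0 at day 7, and above at 15 and below at 1 at day 35, and AGO5 was above at 0 and below at 0 at day 7, and above at 4 and below at 8 at day 35. With edgeR, AGO9 was above at 0 and below at 1 at day 7, and above at 5 and below at 0 at day 35, while AGO5 was below at 19 and 110. Without input day 7 replicate 1 no TE was called in any day 7 count against input. The 99 fell to 0 without input day 7 replicate 2 or AGO5 day 7 replicate 2 as well, and the 56 were 10 without input replicate 2, 12 without AGO9 replicate 1, 5 without AGO9 replicate 2 and 36 without either day 35 input library. The 1 TE with AGO9 below input was lost without AGO9 replicate 2 or input replicate 2. The 3 with AGO5 above input were 0 without AGO5 replicate 2 or input replicate 2, 6 without AGO5 replicate 1, 5 without an AGO5 library of day 35, 1 without an AGO9 library of day 7 or an input library of day 35, and 12 without either day 35 GFP library. At day 35 the 235 were 132 without input replicate 1, and the 24 and 13 of AGO9 were 12 and 0 without it. The 9 with AGO5 above input were 3 without input replicate 1, 4 without AGO5 replicate 2 and 15 without either GFP library. The 13 were 0 without AGO9 replicate 2, 5 without input replicate 2 and 6 without any AGO9 or input library of day 7, and the 24 were 14 without the latter. Without a day 35 GFP library, the 99, 56, 24 and 13 were 185, 109, 37 and 53. Of the day 35 AGO9 calls, 23 of the 24 TEs above input were among the 312 with mostly unique windows, and 0 of the 169 with mostly repeated windows were above input. At day 7, AGO9 was above input at 34 of the 312 (10.9%) and at 22 of the 169 (13.0%). The difference between unique and repeated TEs was not tested at either age.

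A group of TEs had reads at day 35 and almost none at day 7. At 12 TEs every day 7 library was under 1 RPM and both AGO9 day 35 libraries had at least 10 RPM, a description chosen after the values were seen. No count over all features at these limits is given here, so the 12 are not read as many or few. Since they were picked for their AGO9 reads at day 35, no count is given of how AGO9 stood against the other groups there. Over the 11 with a 24-base window, the median share of unique windows was 98.9%. At 7 of the 12 the overlapped gene also had at least 10 RPM in AGO9 at day 35, up to 3217 RPM at AT1G49260. Beside those described elsewhere, the group holds AT4TE58120 past the 3′ end of NLP7, a nitrate-response regulator, with 25.4 and 14.8 RPM in AGO9, and AT1TE65155 at PAP5, an acid phosphatase gene, with 9 gene-free bases and 11.7 and 58.2 RPM. It also holds AT3TE15500 at AT3G11680, with 50.9 and 68.7 RPM in AGO9 and 43.6 and 71.4 RPM in AGO5, where the proteins overlapped.

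AT3TE35700 (chr3:8510651-8511094) covers 303 coding bases of AT3G23650 and leaves it at the 3′ end by 38 bases. Those 38 bases, printed above, had at most 0.197 RPM in the day 7 libraries. At day 35 they had 504 and 358 RPM in AGO9, 82.4 and 153 RPM in AGO5, 21.6 and 22.3 RPM in input and 32.1 and 12.7 RPM in GFP. AGO9 stood highest, AGO5 next, and input and GFP overlapped. The log2 difference from input was 4.21 ± 0.47 for AGO9 (limma adjusted p = 0.000214) and 2.304 ± 0.47 for AGO5 (limma adjusted p = 0.00416). The overlapped gene had 827 RPM in AGO9, 329 RPM in AGO5 and 73.6 RPM in input at day 35.

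AT4TE41150 (chr4:9163740-9164160) extends 340 bases past the 5′ end of AT4G16165, all of them unique. It had 0 reads in all 8 day 7 libraries. At day 35 it had 86.0 and 187 RPM in AGO9, 27.9 and 26.3 RPM in AGO5, 1.36 and 3.03 RPM in input and 0 and 13.2 RPM in GFP. The AGO9 and AGO5 libraries were all above input and GFP. AT4TE41150 reached the 10 RPM minimum for naming only through its AGO9 libraries of day 35. The log2 difference from input was 5.37 ± 0.90 for AGO9 (limma adjusted p = 0.00334) and 3.19 ± 0.90 for AGO5 (limma adjusted p = 0.0206), and the overlapped gene had 1.39 RPM in AGO9.

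One TE held more of the day 35 IP reads than any other. AT5TE31885 (chr5:8812198-8827334) is annotated over 15137 bases and encloses CYCA2;1, an A-type cyclin gene, SHN3, a transcription factor gene of cuticle formation, and AT5G25400. The 5532 of its bases that no gene and no other TE row covered had 2381 and 2767 RPM in AGO5, 7293.5 and 6600.5 RPM in AGO9, 359 and 469 RPM in input and 239 and 299 RPM in GFP at day 35. At day 7 its highest library had 10.4 RPM. Both proteins stood above input at day 35, AGO9 by a log2 difference of 4.08 ± 0.42 (limma adjusted p = 0.000104) and AGO5 by 2.64 ± 0.42 (limma adjusted p = 0.000978). It made up 14.5% and 17.9% of all reads in these TEs in AGO5 and 18.8% and 19.6% in AGO9 at day 35. Without it the share of AGO9 libraries in these TEs was 3.14% and 2.70%, and that of AGO5 libraries 1.41% and 1.27%, so AGO9 remained above AGO5. At day 35 its 24 nt share was 72.9% in AGO9 and 39.99% in AGO5, where 22 nt reads made up 28.0%.

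**Figure D5:**
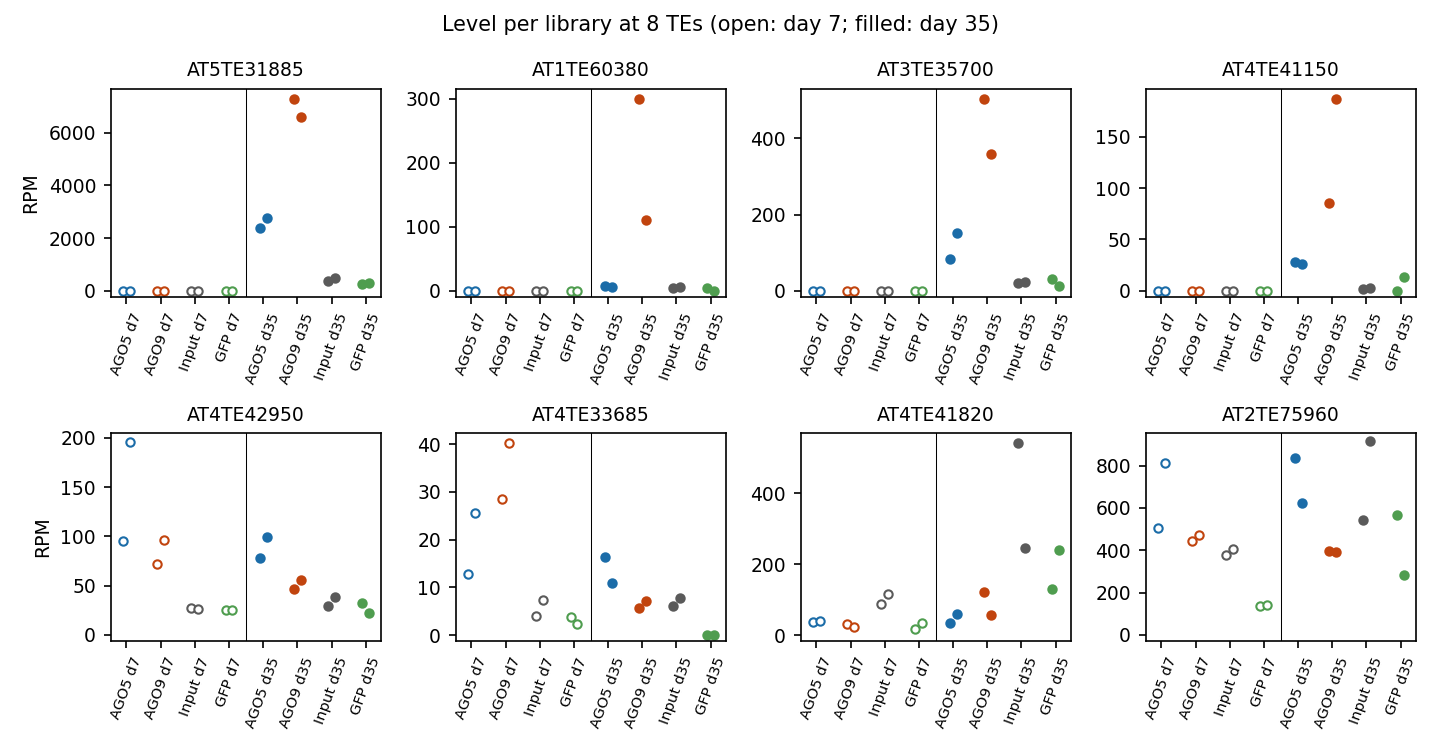
RPM per library (vertical axis, linear) at 8 TEs, with open points for day 7 and filled points for day 35, 2 points per group. AT5TE31885, AT1TE60380, AT3TE35700 and AT4TE41150 are near 0 in all day 7 libraries and highest in AGO9 at day 35. AT4TE42950 is highest in AGO5 at day 35, and AT4TE41820 is highest in input at both ages.

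A resistance gene cluster on chromosome 4 held the largest AGO5 enrichment over input named at day 7. AT4TE42950 (chr4:9508382-9512986) overlaps 421 coding bases at the 3′ end of AT4G16900, a neighbour of RPP4, an immune receptor gene. It had 95.4 and 196 RPM in AGO5, 72.2 and 96.5 RPM in AGO9, 27.1 and 26.0 RPM in input and 25.3 and 25.2 RPM in GFP at day 7. Both proteins were above input and GFP, and they overlapped each other. The log2 difference from input was 2.32 ± 0.37 for AGO5 (limma adjusted p = 0.00703) and 1.62 ± 0.37 for AGO9 (limma adjusted p = 0.00955). At day 35 it had 78.6 and 99.6 RPM in AGO5 and 46.3 and 56.1 RPM in AGO9, and AGO5 was above input by 1.35 ± 0.37 (limma adjusted p = 0.0181). The sizes differed between the proteins: 22 nt reads were 33.6% in AGO5 and 2.62% in AGO9 at day 7, and 24 nt reads 53.0% and 92.8%. In the GFP IP at day 7, 22 nt reads were 48.0% and 24 nt reads 23.6%, and the part of background in the AGO5 sizes was not tested. AT4TE42860 (chr4:9483836-9488588), which reaches into RPP4 itself and into AT4G16857, had 15.6 and 16.9 RPM in AGO9, 4.78 and 11.1 RPM in AGO5 and 2.72 and 2.208 RPM in input at day 7. AGO9 was above input by 2.32 ± 0.60 (limma adjusted p = 0.0152), and for AGO5 the test was not passed.

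Another group on chromosome 4 was enriched at day 7. AT4TE33665, AT4TE33685 and AT4TE33705 lie within 8 kb of each other and reach past the 5′ ends of the non-coding genes AT4G06020, AT4G06025 and AT4G06030. They had 12.3%, 13.9% and 5.1% unique windows, so they may share reads. In AGO9 at day 7 they had 53.6 and 70.5 RPM, 28.5 and 40.2 RPM, and 56.4 and 74.0 RPM, against 7.96 and 12.9 RPM, 4.08 and 7.24 RPM, and 9.19 and 14.7 RPM in input. AGO9 was above input by log2 differences of 2.49, 2.43 and 2.38 (limma adjusted p = 0.0041, 0.00562 and 0.00446). AT4TE33685 was also above input in AGO5, at 12.8 and 25.6 RPM (log2 difference 1.57 ± 0.46, limma adjusted p = 0.0362). All 3 were listed at 0 in both day 35 GFP libraries. The other AGO5 call above input at day 7, AT4TE48170 at AT4G19260, had 9.11 and 24.03 RPM in AGO5 against 3.49 and 3.45 RPM in input, and was named after its value was seen.

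The remaining AGO5 calls above input at day 35 were of both kinds, higher in AGO9 or low. AT5TE62035, at the splicing factor gene U2AF35B and AT5G42825, had 47.9 and 82.0 RPM in AGO5, 359 and 146 RPM in AGO9 and 14.7 and 16.2 RPM in input. AT1TE67110 at AT1G54420 had 6.15 and 11.8 RPM in AGO5 against 1.42 and 1.67 RPM in input. Both were named after their values were seen, and AT5TE06770 at SUC9, AT2TE41700 and AT1TE31410 complete the 9 with the TEs above.

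The TEs with the largest AGO5 differences below input, among those called with at least 10 RPM and no overlap, held reads in AGO9. AT1TE66730 (chr1:20194457-20194818) lies past the 3′ end of ALDH7B4, a stress-induced aldehyde dehydrogenase gene. It had 2.92 and 2.43 RPM in AGO5 and 23.2 and 26.2 RPM in input at day 7, and 4.06 and 1.48 against 97.4 and 54.5 RPM at day 35. AGO5 was below input by log2 differences of -2.81 ± 0.60 (limma adjusted p = 0.0122) and -4.38 ± 0.60 (limma adjusted p = 0.00051). AGO9 had 24.9 and 17.3 RPM there at day 7, which overlapped input. AT1TE62705, past the 5′ end of AT1G51080, and AT4TE62590 had log2 differences of -2.90 and -2.82 at day 7, and AT2TE82905 and AT1TE74530 of -4.39 and -3.67 at day 35.

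AGO9 was below input at few TEs. AT4TE41820 (chr4:9284783-9285161), past the 5′ end of AT4G16460 and printed above, was the 1 called at day 7, with 30.7 and 22.1 RPM in AGO9 against 88.0 and 117 RPM in input, a log2 difference of -1.92 ± 0.51 (limma adjusted p = 0.0167). At day 35 it had 123 and 56.7 RPM in AGO9 against 543 and 245 RPM in input, a difference of -2.12 ± 0.51 (limma adjusted p = 0.021). Its GFP libraries had 130 and 241 RPM at day 35, so AGO9 was not above the background there. AT1TE62865, past the 3′ end of PLT2, a root stem cell transcription factor gene, had 31.1 and 16.5 RPM in AGO9 against 73.5 and 90.2 RPM in input at day 35 (log2 difference -1.80 ± 0.51, limma adjusted p = 0.0467). AT4TE02995 at AT4G01395 had 90.6 and 38.1 against 234 and 163 RPM (-1.71 ± 0.38, limma adjusted p = 0.0148).

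The TEs with the highest mean over the 8 AGO libraries were mostly of repeated sequence, with under 50% unique windows at 8 of the 10, AT5TE31885 and AT3TE84000 apart. AT3TE70590, 15186 bases long at the microRNA gene MIR2933b, had 315 and 490 RPM in AGO5 and 694 and 751 RPM in AGO9 at day 7, and 516 and 465 and 717 and 656 RPM at day 35. AT3TE76010, past the 3′ end of HR4, a homologue of a broad-spectrum mildew resistance gene, had 975 and 895 RPM in AGO9 and 267 and 259 RPM in AGO5 at day 35, a log2 difference of -1.82 ± 0.30 (limma adjusted p = 0.00137). AT2TE75960, between AtCaN2, a nuclease gene, and AT2G40420, had 503 and 811 RPM in AGO5 and 442 and 470 RPM in AGO9 at day 7, with no overlap and no call. AT1TE63030, which encloses MIR5653, had 332 and 531 RPM in AGO5 and 266 and 290 RPM in AGO9 at day 7, also with no call. AT2TE42810 at RUS4 had 382 and 525 RPM in AGO9 at day 7 and 109.8 and 125 RPM at day 35, a difference that was not tested. The others were AT1TE63170 at SPP1, AT5TE31640 at AT5G25240, AT1TE36890 at AFH14, a formin gene, and AT3TE84000 at AT3G55670. Of these 4, all were higher in AGO9 at day 7 by the test, with log2 differences of -1.65, -1.80, -1.69 and -1.57, and 2, AT1TE63170 and AT5TE31640, at day 35 with -1.44 and -1.49.

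In input, these TEs had more reads at day 35. Both day 35 input libraries were above both day 7 input libraries at 400 of the 483 (82.8%), where 60.5% of all features did so. Arm TEs outside genes did so at 2599 of 2963 (87.7%), so the rise was not particular to the gene-overlapping TEs. The median level of the 483 was 7.08 RPM at day 7 and 16.3 RPM at day 35. Both AGO9 libraries at day 35 were above both at day 7 at 108 TEs and below at 200, where 18.7% and 52.3% of all features were. In AGO9 the medians were 13.1 and 14.8 RPM, and in AGO5 3.68 and 6.46 RPM. No p-value was computed for the ages within a group.

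The change between ages in the AGO5 minus AGO9 difference was called at 5 TEs, of which 4 reached the 1 RPM minimum only through AGO9 libraries of 1 age and so had to differ. It was above 0 at 1 and below 0 at 4, where 0.529% and 0.729% of all features were called, and the median over the TEs was 0.30 against 0.34 over all features. The 4 below 0 were AT1TE60380, at -4.59, and 3 named after their values were seen: AT1TE14990 at AT1G13470, AT1TE22450 at AT1G20030 and AT5TE57785 at AT5G39995. The mean over the other 14 libraries, without AGO9 at day 35, was 0.942 RPM at AT1TE14990, 0.744 at AT1TE22450, 0.570 at AT5TE57785 and 1.93 at AT1TE60380, and without AGO9 at day 7 it was 0.438 at AT1TE35380. AT1TE14990 had at most 0.01 RPM at day 7, and 96.2 and 26.9 RPM in AGO9 and 3.04 and 3.75 RPM in AGO5 at day 35. AT1TE35380 at AT1G30820, the 1 above 0, had 5.68 and 5.45 RPM in AGO9 at day 7 and at most 0.429 RPM at day 35, also named after its values were seen. Without any 1 of the day 7 AGO5, AGO9 or input libraries, both counts were 0, and without a day 35 GFP library they were 5 and 7. The 1 above 0 was 0 without AGO9 replicate 2 or an input library at day 35, and 2 or 3 without GFP day 7 replicate 2, an AGO5 day 35 library or AGO9 day 35 replicate 1.

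Against the GFP background, AGO9 was above at most of these TEs and AGO5 at fewer. At day 7 both AGO9 libraries were above both GFP libraries at 453 of 483, where 79% of all features were, and both AGO5 libraries at 234, where 57.6% were. At day 35 AGO9 was above GFP at 300, where 53.6% of all features were, and AGO5 at 129, where 37.2% were, while AGO5 was below GFP at 92, where 11.1% were. At day 7 AGO5 was below GFP at 37, where 7.98% were. Input was above GFP at 411 at day 7 and 377 at day 35, where 79.5% and 65.1% were. After quantile normalization, chosen after the data were seen, AGO9 was above GFP at 235 and AGO5 at 63 at day 7, where 41.5% and 30.7% of all features were, and at 178 and 86 at day 35, where 29.3% and 26.1% were.

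Genes of 4 lists gave few TEs that could be read. Of 11 genes known to carry a TE or to be silenced through one, 3 had members, 23 TEs in all, of which 22 lay wholly inside the gene, 16 of them in the downy mildew resistance gene RPP7 (AT1G58602). The RPP4 TE above was the 1 that was tested. Of 18 genes of silencing and RNA-directed DNA methylation, 0 had a member. Of 16 meristem and flowering genes, 2 had a member, the receptor gene CLV2 and the florigen gene FT, and both TEs lay wholly inside and had no read. Of 7 genes derived from TEs, 1 had a member, FHY3, a light-signalling gene derived from a transposase, and it had no read.

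The position rule has bounds, and values on their sides are given as a description. The member nearest to each of the 10 bounds, taken over TEs with a mean of at least 1 RPM, had between 2.07 and 656 RPM in AGO9 at day 35, with a median of 14.9 RPM. The 10 gene-overlapping TEs nearest on the inner side had between 0.214 and 211 RPM, with a median of 9.66 RPM. At day 7 the AGO9 medians were 4.63 and 9.49 RPM.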

How the data were processed

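The authors deposited RPM, reads per 1e+06 reads assigned to features, for 21, 22, 23 and 24 nt reads in each of 16 libraries, with coordinates per the file headers. Per the submitters' processing notes, the tools were cutadapt 1.18, Bowtie2 2.3.5.1 and featureCounts of Subread 2.0.1 on TAIR10; their settings are not given in the sources used here. The deposited combined column of AGO5 replicate 1 at day 35 summed to 59698.5 and was treated as a score. The 4 size columns were summed for every library instead, and 100% of values were whole multiples of 1 read (tolerance 0.001 reads), so whole reads were recovered as counts from the deposited RPM. Each of the 80 value columns belonged to 1 library.

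Gene coordinates equalled TAIR10.1 RefSeq for 33899 of 33900 nuclear genes, which gave symbols, exons and sequence. TE family names were not used. Log2(RPM + 1) was fitted with limma 3.58.1 (R 4.3.3) over the 17020 features whose mean reached 1 RPM, as 8 groups with a trend and 8 residual degrees of freedom, in 7 contrasts. On log2(RPM + 1), changes of low features come out too small. edgeR 4.0.16 (quasi-likelihood, TMM) ran on recovered reads as an alternative, and both were tested on simulated data. Others were median centring, quantile normalization, a pseudocount of 0.25, a minimum of 10 RPM, no minimum, the replicate number as a block, 24 nt reads only, no day 35 GFP libraries and each library left out.

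TEs were named by rule: up to 3 per direction against input and for the change between ages, and up to 6 for AGO5 against AGO9, by absolute log2 difference among those with adjusted p under 0.05, at least 10 RPM and no overlap; the 10 highest in the AGO libraries; and tested members of 4 host gene lists. The members and lists were chosen with earlier results of these data known.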

Additional observations from a re-analysis of the deposited data

Results flagged for a closer look

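The AGO5 minus AGO9 difference changed between the ages at 5 TEs by limma's interaction term (adjusted p under 0.05 over all features). The change was -4.59 at AT1TE60380, -3.56 at AT1TE14990, -2.79 at AT1TE22450, -2.13 at AT5TE57785 and 1.76 at AT1TE35380, on the log2 scale. AT1TE14990, AT1TE22450 and AT5TE57785 reached the 1 RPM minimum only through AGO9 at day 35, and AT1TE35380 only through AGO9 at day 7, so these 4 had to differ and their calls support nothing further. The first 4 had at most 0.0690 RPM in any day 7 library, and the change of 1.76 came with at most 0.429 RPM in any AGO5 or AGO9 library at day 35.

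For other results every library lay on opposite sides of its reference at the 2 ages, and the difference between ages was not tested. The 24 nt share of the TE reads in AGO5 was 8.93 percentage points above input at day 7 and differed by -15.9 points from it at day 35. Over all reads of the libraries the differences were 11.3 and -20.3 points. The AGO5 minus AGO9 log2 difference at AT4TE33685 was -0.86 at day 7 and 0.96 at day 35. The AGO5 minus input difference at AT5TE31885 was -0.50 and 2.64. The AGO9 minus input difference was 0.79 and -1.03 at AT3TE79795, 0.78 and -0.32 at AT3TE70590, 0.22 and -0.84 at AT2TE75960, 0.24 and -0.83 at AT1TE63170, 0.67 and -0.44 at AT5TE31640, and 1.06 and -0.19 at AT1TE36890. The median AGO9 minus input difference over all features was itself 0.65 at day 7 and -0.30 at day 35, and that of AGO5 minus AGO9 was -0.74 and -0.34.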

How the results depend on the processing

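Counts of TEs called are given as higher and lower. As reported, they were 3 and 99 for AGO5 against input at day 7, 56 and 1 for AGO9 against input at day 7, 9 and 235 for AGO5 against input at day 35, 24 and 13 for AGO9 against input at day 35, 0 and 232 for AGO5 against AGO9 at day 7, 3 and 185 for AGO5 against AGO9 at day 35, 1 and 4 for the change between ages. With median centring they were 0 and 0 for AGO5 against input at day 7, 0 and 0 for AGO9 against input at day 7, 4 and 8 for AGO5 against input at day 35, 15 and 1 for AGO9 against input at day 35, 0 and 1 for AGO5 against AGO9 at day 7, 0 and 14 for AGO5 against AGO9 at day 35, 0 and 1 for the change between ages. With quantile normalization they were 10 and 79 for AGO5 against input at day 7, 19 and 1 for AGO9 against input at day 7, 20 and 158 for AGO5 against input at day 35, 36 and 7 for AGO9 against input at day 35, 1 and 80 for AGO5 against AGO9 at day 7, 7 and 126 for AGO5 against AGO9 at day 35, 0 and 2 for the change between ages. With a pseudocount of 0.25 they were 1 and 76 for AGO5 against input at day 7, 27 and 1 for AGO9 against input at day 7, 4 and 203 for AGO5 against input at day 35, 15 and 6 for AGO9 against input at day 35, 0 and 0 for the change between ages. With a minimum of 10 RPM, which left 242 TEs, they were 30 and 1 for AGO9 against input at day 7, 5 and 151 for AGO5 against input at day 35, 10 and 14 for AGO9 against input at day 35, 0 and 143 for AGO5 against AGO9 at day 7, 1 and 126 for AGO5 against AGO9 at day 35, 0 and 0 for the change between ages. With no minimum, on 1462 TEs, they were 10 and 130 for AGO5 against input at day 7, 119 and 19 for AGO9 against input at day 7, 35 and 22 for AGO9 against input at day 35, 4 and 319 for AGO5 against AGO9 at day 7, 11 and 11 for the change between ages. Without the day 35 GFP libraries they were 12 and 185 for AGO5 against input at day 7, 109 and 1 for AGO9 against input at day 7, 14 and 307 for AGO5 against input at day 35, 36 and 53 for AGO9 against input at day 35, 2 and 321 for AGO5 against AGO9 at day 7, 5 and 6 for the change between ages. With 24 nt reads only they were 2 and 31 for AGO5 against input at day 7, 166 and 0 for AGO9 against input at day 7, 3 and 278 for AGO5 against input at day 35, 33 and 5 for AGO9 against input at day 35, 0 and 281 for AGO5 against AGO9 at day 35, 6 and 8 for the change between ages. With edgeR on recovered reads they were 3 and 19 for AGO5 against input at day 7, 0 and 1 for AGO9 against input at day 7, 8 and 110 for AGO5 against input at day 35, 5 and 0 for AGO9 against input at day 35, 6 and 5 for AGO5 against AGO9 at day 7, 6 and 77 for AGO5 against AGO9 at day 35, 0 and 0 for the change between ages. Comparisons not listed for a setting were within 1.5 times in both directions. When each of the 16 libraries was left out in turn they ranged 0 to 12 and 0 to 185 for AGO5 against input at day 7, 0 to 109 and 0 to 1 for AGO9 against input at day 7, 3 to 15 and 132 to 308 for AGO5 against input at day 35, 12 to 37 and 0 to 53 for AGO9 against input at day 35, 0 to 2 and 72 to 323 for AGO5 against AGO9 at day 7, 1 to 5 and 100 to 263 for AGO5 against AGO9 at day 35, 0 to 5 and 0 to 7 for the change between ages, the lone library of a group being taken to vary like the others. 

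With the replicate number as a block the counts were 61 and 1 for AGO9 against input at day 7, 10 and 235 for AGO5 and 24 and 14 for AGO9 against input at day 35, 0 and 234 and 3 and 185 for AGO5 against AGO9, and 1 and 3 for the change, and no count moved by over 1.5 times. The labels only share numbers: deviations of same-numbered libraries correlated at 0.0216 to 0.507 across features. The AGO9 minus AGO5 share of the library in these TEs kept its sign with protein-coding hosts only, without AT5TE31885 (chosen after seeing the data) and without each library, ranging from 1.40 to 1.58 points at day 7 and 1.77 to 2.28 at day 35 over the left-out libraries. The 24 nt share difference ranged from 19.0 to 22.9 and from 19.7 to 44.04 points. Against GFP, counts after quantile normalization were 63 for AGO5 and 235 for AGO9 at day 7 and 178 for AGO9 at day 35. Of 34 single-TE results, 22 did not pass under median centring, 18 under edgeR, 9 with 24 nt reads only, 7 with a pseudocount of 0.25, 4 with no minimum and 1 each with quantile normalization, a minimum of 10 RPM and the block. With 1 library left out, 0 to 12 did not pass, the 12 without input replicate 1 of day 7. None of these alternatives changed a sign. Depth limits the day 35 GFP libraries most, where 3 reads are worth 0.721 and 0.838 RPM.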
